A study of Mus musculus with 6 samples.

Results

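Neutrophil granule genes are the 10 genes Mpo, Elane, Prtn3, Ctsg, Ltf, Ngp, Camp, Lcn2, S100a8 and S100a9, chosen by name and each found as 1 of the 52459 genes in the count table. The first 4 encode proteins of primary granules and the other 6 are made later in neutrophil maturation. They were measured by RNA-seq in megakaryocytic-erythroid progenitors (MEPs), marrow cells that give rise to platelet-forming megakaryocytes and to red cells, from Tmprss6-/- mice (KO, 3 libraries) and wild-type mice (WT, 3 libraries). Tmprss6 is a protease of the liver that restrains hepcidin, and the title describes its loss as a condition of iron deficiency. Each library came from cells pooled from 3 mice. The sort kept cells with cKit and CD150 and left out those with lineage markers, Sca, Fc gamma receptors, CD105 or CD41. The sources used here do not give the strain, age, sex or any treatment of the mice, nor how the Tmprss6 allele was made.

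Neutrophils store antimicrobial proteins in granules that are filled in sequence as the cell matures. Primary granule proteins are made first, in promyelocytes, which descend from granulocyte-monocyte progenitors, cells with Fc gamma receptors on their surface. Proteins of the secondary and tertiary granules follow at the myelocyte and metamyelocyte stages, under the transcription factor C/EBP epsilon. MEPs belong to another branch of the marrow, and the Fc gamma receptor gate is used to leave out granulocyte-monocyte progenitors. In bulk RNA, fewer cells of a type and less RNA per cell cannot be told apart.

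Transcripts of the primary granules were present in all 6 libraries, with Elane as low as 2.135 CPM in WT replicate 3. The later genes Ltf, Ngp, Camp and Lcn2 were each at or below 2.02 CPM in KO replicates 1 and 3. In WT they lay between 0.553 CPM (Lcn2, replicate 1) and 31.0 CPM (Ngp, replicate 2). KO replicate 2 carried the highest level of all 10 genes, as it did for 23.0% of the 13453 genes tested. No member passed the test of KO against WT over all 6 libraries. When replicate 2 of both genotypes was left out and the others were paired by number, a choice made with earlier results known, the lactoferrin gene Ltf and the granule protein gene Ngp fell in KO, as part of 0.862% of all genes called, and the 4 primary genes did not pass. No other setting called Ltf or Ngp, and DESeq2 gave neither an adjusted p. The later members made up a smaller part of the granule signal in KO than in the same-numbered WT library in 3 of 3 replicate numbers. Without pairing the groups overlapped, since the share in KO replicate 2 lay above that in WT replicate 1.

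Total counts were between 13402209 and 22986837 per library, so that 3 counts, the lowest number taken as detected, stood for 0.138 to 0.22 CPM (counts scaled to a common library size). Tmprss6 itself had 0, 5 and 0 counts in KO replicates 1 to 3 and 5, 4 and 0 in WT replicates 1 to 3, too few to check a label. The 14 MEP genes, among them Kit and Gata2, summed to 9128, 6591 and 9420 CPM in KO replicates 1 to 3 and to 8019, 9057 and 9498 CPM in WT replicates 1 to 3. KO replicate 2 stood apart, with the lowest sum of MEP genes and the highest sum of the lists for granulocyte-monocyte receptors, monocytes, eosinophils, basophils and mast cells, macrophages, lymphoid cells and late erythroblasts. The members' fold changes are therefore given with and without it.

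The promoters of 3 primary and 2 later members are shown because the values below are described by these 2 classes. The 2 later ones, Ltf and Ngp, are the genes called in pairs 1 and 3 below and do not stand for all 6. The sequences are those of RefSeq on GRCm38.p6. Each is printed 5′ to 3′ on the strand of the gene, from 250 bases before the RefSeq start to the last base before any annotated GENCODE transcript start, and that of Prtn3 lies within an intron of a longer non-coding transcript. Capitals mark matches to TTNNGNAA, a simple form of the C/EBP site, and to GAGGAA, a core of the PU.1 site, each on either strand (reverse complements TTNCNNAA and TTCCTC).
Elane, chr10:79886062-79886246, plus strand: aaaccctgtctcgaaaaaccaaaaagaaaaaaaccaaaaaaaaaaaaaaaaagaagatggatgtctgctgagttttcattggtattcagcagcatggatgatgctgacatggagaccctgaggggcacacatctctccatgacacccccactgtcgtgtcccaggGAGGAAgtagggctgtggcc
Prtn3, chr10:79879417-79879613, plus strand: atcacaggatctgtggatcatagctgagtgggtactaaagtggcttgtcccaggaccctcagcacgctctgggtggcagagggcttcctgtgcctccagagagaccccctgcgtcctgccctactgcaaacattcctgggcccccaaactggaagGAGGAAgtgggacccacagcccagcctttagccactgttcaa
Ctsg, chr14:56102575-56102824, minus strand: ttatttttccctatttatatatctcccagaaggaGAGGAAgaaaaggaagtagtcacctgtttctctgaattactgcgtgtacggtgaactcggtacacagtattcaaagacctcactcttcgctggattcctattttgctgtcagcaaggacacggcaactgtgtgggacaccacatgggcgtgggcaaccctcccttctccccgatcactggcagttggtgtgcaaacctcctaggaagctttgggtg
Ltf, chr9:111019042-111019270, plus strand: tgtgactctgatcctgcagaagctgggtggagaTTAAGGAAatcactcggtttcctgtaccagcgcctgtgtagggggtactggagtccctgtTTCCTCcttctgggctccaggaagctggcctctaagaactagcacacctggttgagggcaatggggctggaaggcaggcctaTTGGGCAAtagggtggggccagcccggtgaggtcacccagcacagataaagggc
Ngp, chr9:110419558-110419746, plus strand: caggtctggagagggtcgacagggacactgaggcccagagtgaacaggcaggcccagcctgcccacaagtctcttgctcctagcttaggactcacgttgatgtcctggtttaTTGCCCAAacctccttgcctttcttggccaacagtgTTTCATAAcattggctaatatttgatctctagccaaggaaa
All 10 members matched the promoter table by symbol, with 300 bases for each, 250 before and 50 after the start. Within those 300 bases, TTNNGNAA was found in 0 of 4 primary and 5 of 6 later members, against 40.7% of all 32817 promoters of that length. GAGGAA was found in 4 of 4 primary and 3 of 6 later members, against 28.3% of all promoters. Camp, not printed here, had no match to either pattern. No match to TTNNGNAA overlapped one to GAGGAA in these 10 windows. The RUNX core TGNGGT (reverse complement ACCNCA) was found in 1 primary and 2 later members (45.8% of all promoters), AGATAA of GATA factors (TTATCT) in 0 and 2 (11.2%) and AACTG of MYB (CAGTT) in 3 and 4 (44.8%). These matches describe letters in the window and say nothing of binding.

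Mpo encodes myeloperoxidase, the heme enzyme that makes hypochlorous acid and the most abundant protein of primary granules. It stood at 79.8, 1284 and 169.6 CPM in KO replicates 1 to 3, against 152.8, 84.1 and 27.9 CPM in WT replicates 1 to 3. KO replicate 2 was 7.57 times the highest other library, and the other KO libraries lay inside the WT range (replicate 1) or just above it (replicate 3). Over all 6 libraries Mpo averaged 511 ± 671 CPM in KO and 88.3 ± 62.6 CPM in WT (SD, n = 3), with a log2 fold change of 2.53 (SE 1.07) that missed the threshold of 0.05 in edgeR's quasi-likelihood test (Benjamini-Hochberg adjusted p = 1.00, unadjusted p = 0.046). Without KO replicate 2 its log2 fold change shrank to 0.50 (SE 0.69), with an edgeR adjusted p of 1.00.

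Elane, Prtn3 and Ctsg encode neutrophil elastase, proteinase 3 and cathepsin G, related serine proteases of the same granules. Elane (chromosome 10, 79886247 to 79888215) and Prtn3 (79874476 to 79883174) are neighbours. Elane was at 4.16, 677 and 49.4 CPM in KO replicates 1 to 3 and at 81.8, 24.9 and 2.135 CPM in WT replicates 1 to 3. Its lowest and highest WT libraries lay 38.3-fold apart, the widest spread within WT among the members. Prtn3 was steadier, at 20.4, 204 and 28.2 CPM in the KO libraries and 32.5, 18.3 and 12.0 CPM in the WT libraries, a WT spread of 2.70-fold. Ctsg was at 11.1, 314 and 13.9 CPM in KO and at 35.0, 14.7 and 3.34 CPM in WT. In all 3 genes KO replicate 2 stood above every other library, by 8.28, 6.28 and 8.98 times for Elane, Prtn3 and Ctsg, and the other KO libraries overlapped with WT. The log2 fold changes over 6 libraries were 2.74 (SE 1.69) for Elane, 2.01 (SE 0.88) for Prtn3 and 2.67 (SE 1.38) for Ctsg, none past the threshold (edgeR adjusted p = 1.00 each). Without KO replicate 2 they were -0.44, 0.21 and -0.50, so the sign turned for Elane and Ctsg.

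**Figure D1:**
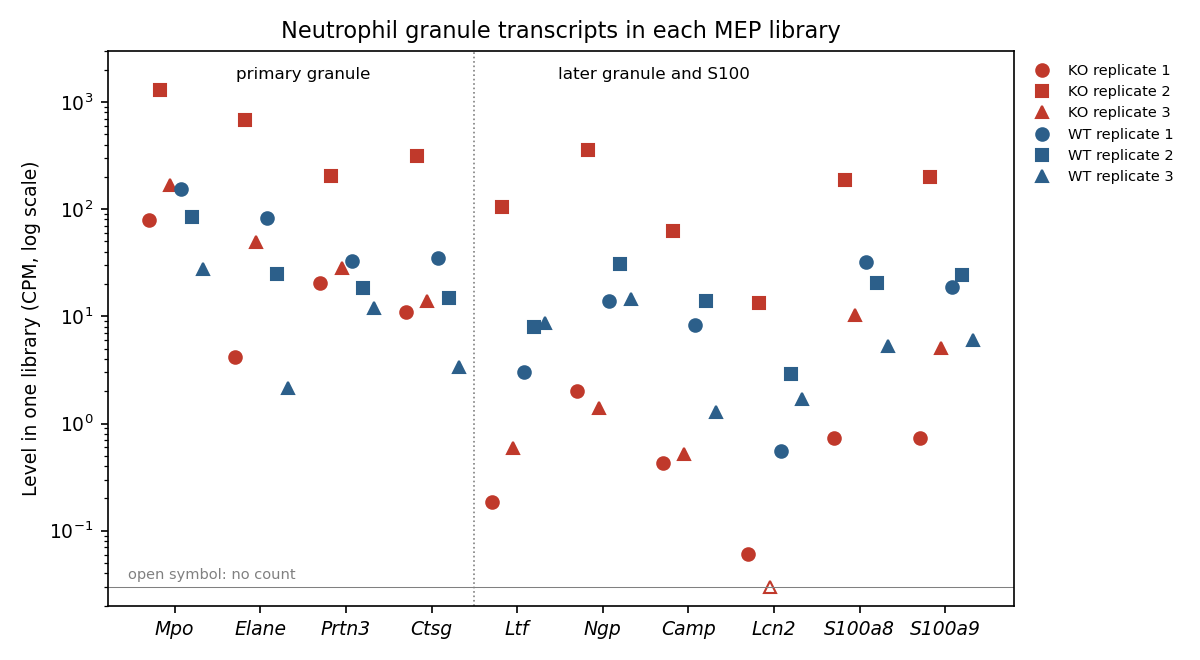
Level of each member in each library in CPM on a log axis, KO libraries in red left of WT libraries in blue, with 1 symbol per replicate number and an open symbol where there was no count. KO replicate 2 is highest for all 10 genes, and KO replicates 1 and 3 lie below every WT library for Ltf, Ngp, Camp, Lcn2 and S100a9.

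Ltf encodes lactoferrin, the iron-binding protein of secondary granules (chromosome 9, 111019271 to 111042767). It gave 3, 1690 and 8 counts in KO replicates 1 to 3, against 65, 116 and 123 counts in WT replicates 1 to 3. That is 0.1835, 105 and 0.588 CPM in KO and 3.00, 7.99 and 8.75 CPM in WT. KO replicates 1 and 3 were at or near the detection floor while every WT library was above it, and KO replicate 2 was 12.0 times the highest WT library. The 3 counts of KO replicate 1 have an exact Poisson 95% interval of 0.619 to 8.77 counts, and the ratio of KO replicate 1 to WT replicate 1 was 0.0612 (exact interval 0.0123 to 0.187). These intervals cover counting error only.

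Ngp encodes neutrophilic granule protein, a relative of the cathelicidins that is found in secondary granules. Its levels were 2.02, 353 and 1.40 CPM in KO replicates 1 to 3 and 13.8, 31.0 and 14.6 CPM in WT replicates 1 to 3. The WT libraries lay within 2.25-fold of each other, the narrowest WT spread of the members. Camp, the precursor of the antimicrobial peptide of the cathelicidin family, was at 0.428, 62.9 and 0.514 CPM in KO and at 8.25, 13.85 and 1.28 CPM in WT, with 7 counts in each of KO replicates 1 and 3. Ltf, Ngp and Camp all lie on chromosome 9, between 109847379 and 111042767. Lcn2, lipocalin 2, which withholds iron from bacteria by binding their siderophores, was the scarcest member. It gave 1, 216 and 0 counts in KO replicates 1 to 3 and 12, 42 and 24 counts in WT replicates 1 to 3. At the floor of 3 counts, the count of 0 in KO replicate 3 allows a level of up to 0.22 CPM.

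S100a8 and S100a9 encode the partner chains of calprotectin, a calcium- and zinc-binding complex that fills the neutrophil cytosol and is also made by monocytes. S100a8 was at 0.734, 187 and 10.3 CPM in KO replicates 1 to 3 and at 31.8, 20.3 and 5.265 CPM in WT replicates 1 to 3. S100a9 was at 0.734, 200.0 and 5.07 CPM in KO and at 18.8, 24.2 and 5.98 CPM in WT. KO replicate 1 held 12 counts of each gene. KO replicate 3 lay within the WT range for S100a8 and just under it for S100a9.

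Over all 6 libraries the later members had log2 fold changes of 1.40 to 2.59, from Lcn2 to Ngp, and 0 of 6 passed (edgeR adjusted p = 1.00 each). The test called 0 of 13453 genes (0.0%), with 234 at an unadjusted p under 0.05, where DESeq2 called 6, with 346, and limma voom 0, with 97. All members had positive values, while 49.3% of all genes did and the median of all genes was -0.0048. The direction of the later members rested on KO replicate 2. Without it the log2 fold changes were -4.09 (SE 0.82) for Ltf, -3.53 (SE 0.56) for Ngp, -4.03 (SE 1.08) for Camp, -1.80 (SE 1.14) for S100a8 and -2.50 (SE 0.95) for S100a9, none past edgeR's adjusted threshold (adjusted p = 1.00 each). In KO replicates 1 and 3 alike, 5 of 6 later and 0 of 4 primary members lay below all 3 WT libraries, as did 5.57% of all genes tested. The exception among the later members was S100a8. No member had both libraries above all of WT, against 5.05% of all genes. With KO replicate 2 included, the groups overlapped for all 10 members, while the 3 KO libraries lay below all of WT in 1.75% of all genes and above in 2.27%.

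Both genotypes carry the replicate numbers 1, 2 and 3, and libraries of the same number are compared as pairs here. Their deviations from the group means correlated at 0.532 and 0.633 for numbers 1 and 3 but only at 0.161 for number 2. In log2 CPM, WT replicate 2 correlated at 0.918 with KO replicate 2, below 0.958 with KO replicate 1 and 0.954 with KO replicate 3. Among the WT libraries, KO replicate 2 correlated best with WT replicate 2, before WT replicate 1 (0.904) and WT replicate 3 (0.898). With 0.161 for its deviations, the basis for pair 2 remains weak. In pair 1 all 10 members were lower in KO, by log2 differences of -0.67 for Prtn3 to -5.22 for S100a8. In pair 2 all 10 were higher, by 2.17 for Lcn2 to 4.76 for Elane. In pair 3 the classes parted: the 4 primary members were higher in KO, by 1.22 for Prtn3 to 4.45 for Elane, while Ltf, Ngp and Camp were lower, with differences of -3.64, -3.27 and -1.14. S100a9 differed by -0.23 and S100a8 by 0.95 in that pair. With replicate number as a blocking term over all 6 libraries, edgeR called 0 genes, and the log2 fold changes were 2.02 for Mpo, -1.35 for Ltf and -1.10 for Ngp.

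**Figure D2:**
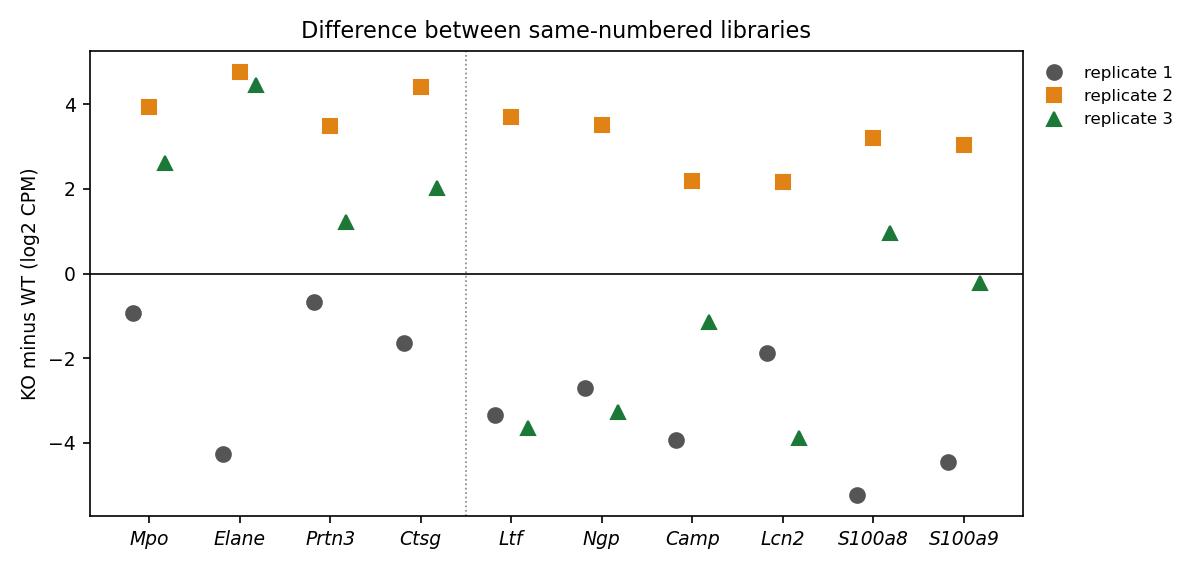
Difference in log2 CPM (prior count 2), KO minus WT, between libraries of the same replicate number for each member. Replicate 2 is above 0 for all 10 genes and replicate 1 below 0 for all 10, while replicate 3 is above 0 for the 4 primary genes and S100a8 and below 0 for the other 5.

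When only pairs 1 and 3 entered the block fit, 2 of the 5 later members tested fell in KO and 0 of the 4 primary members passed. Lcn2 did not pass the filter on low counts there. This comparison leaves 1 residual degree of freedom per gene before information is shared across genes, and its libraries were selected with earlier results of these data known. It called 117 of 13572 genes (0.862%), of which 82 (0.604%) were lower and 35 (0.258%) higher in KO. Ltf fell, at a log2 fold change of -3.92 (SE 0.57) with an edgeR adjusted p of 0.0024. Ngp fell too, at -3.06 (SE 0.35) with an edgeR adjusted p of 0.00021. Over the alternatives the adjusted p reached 1.00 for both genes, and their log2 fold changes ranged from -4.09 to 3.00 and from -3.53 to 3.16. Camp, at -2.94 (SE 0.71) on the same scale, missed the threshold (edgeR adjusted p = 0.064). S100a9 and S100a8 had -2.22 and -1.85 (edgeR adjusted p = 0.18 and 0.47). The primary genes Mpo, Prtn3, Ctsg and Elane had 0.75, 0.25, 0.022 and -0.21 (edgeR adjusted p = 0.60, 0.83, 0.99 and 0.98). Whether the later and the primary members differed from each other in response was not tested.

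**Figure D3:**
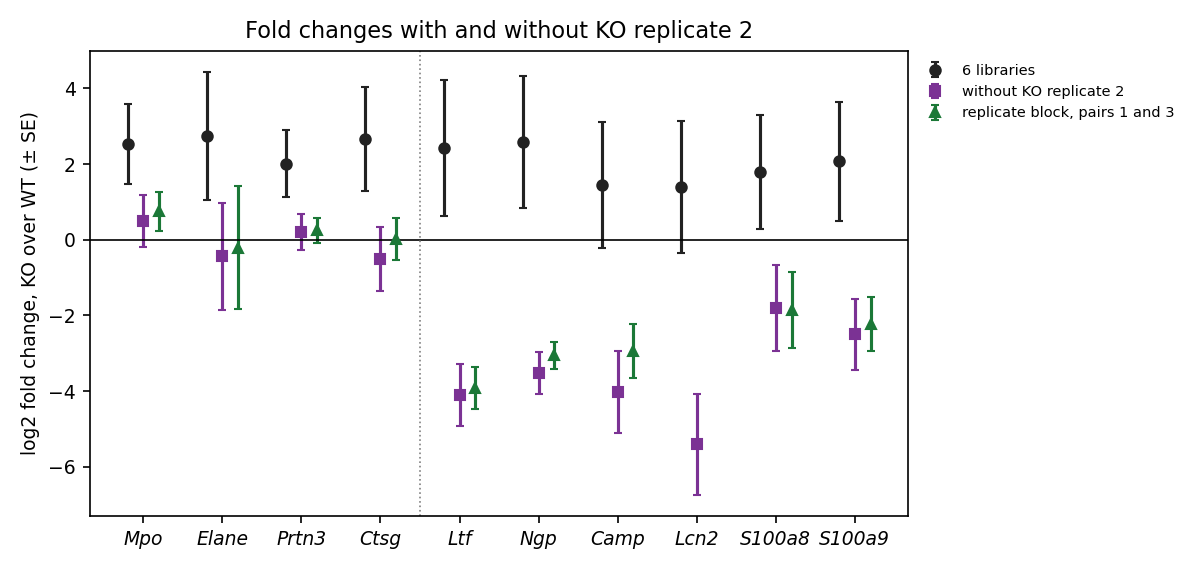
Log2 fold change of KO over WT for each member with its standard error, from edgeR on all 6 libraries (black), without KO replicate 2 (purple) and on pairs 1 and 3 with a replicate block (green). All 10 values are positive over 6 libraries, and the 6 later members are negative without KO replicate 2, where that of Lcn2 rests on 1 count in KO; Lcn2 has no green value.

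The balance of later against primary transcripts was lower in KO within each replicate number, KO replicate 2 included. Divided by transcript length and summed, the later members made up 7.51%, 41.4% and 17.5% of the signal of all 10 members in KO replicates 1 to 3, against 37.6%, 60.65% and 59.45% in WT replicates 1 to 3. The groups overlapped, since KO replicate 2 lay above WT replicate 1, and the means were 22.1 ± 17.4% in KO and 52.6 ± 12.98% in WT (SD, n = 3). Without KO replicate 2 the KO mean was 12.5%. As a plain share of counts the later members held 3.48% (Wilson 95% interval 2.75 to 4.38%), 27.1% (26.7 to 27.5%) and 6.40% (5.67 to 7.22%) in KO replicates 1 to 3. In WT replicates 1 to 3 they held 20.1% (19.3 to 21.02%), 41.4% (39.8 to 43.0%) and 45.3% (42.45 to 48.15%). The Wilson intervals cover counting error within 1 library and not the spread between libraries. Without S100a8 and S100a9, which are not granule proteins, the length-divided shares were 3.50%, 20.1% and 1.31% in KO and 10.3%, 35.5% and 39.7% in WT, again lower in KO for each number.

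**Figure D4:**
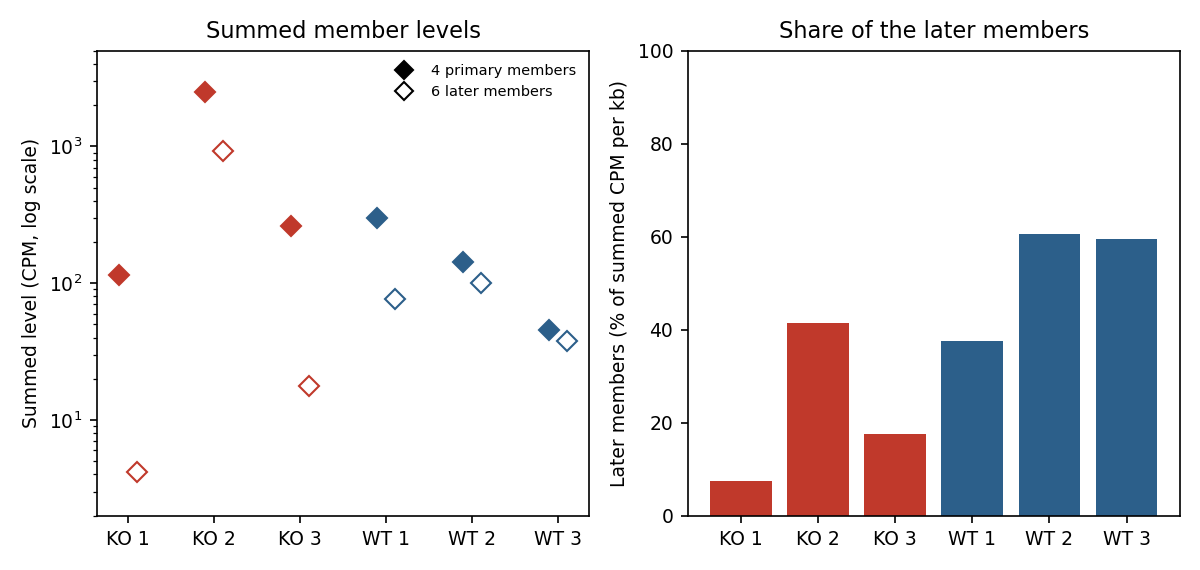
Left, summed CPM of the 4 primary members (filled) and the 6 later members (open) in each library on a log axis. Right, the share of the later members in the summed CPM per kb of all 10 in percent; KO bars (red) stand at 7.51%, 41.4% and 17.5% and WT bars (blue) at 37.6%, 60.65% and 59.45%.

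The summed level of the primary members was 115.5, 2480.0 and 261 CPM in KO replicates 1 to 3, against 302, 142 and 45.4 CPM in WT replicates 1 to 3. The later members summed to 4.16, 921 and 17.85 CPM in KO and to 76.2, 100.3 and 37.6 CPM in WT. KO replicates 1 and 3 thus fell inside the WT range for the primary sum and below it for the later sum. All 10 members together took 0.364% of the counts of KO replicate 2 and 0.00853% to 0.0357% of those of the other 5 libraries.

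Per kb of transcript, the order of the members differed between libraries. In KO replicate 1 the 4 primary genes led, with Mpo at 29.0 and Prtn3 at 19.9 CPM per kb, and the highest later member was Ngp at 1.65 CPM per kb. KO replicate 2 was led by Elane at 688 CPM per kb, before Mpo at 467 and S100a9 at 385 CPM per kb. In KO replicate 3 Mpo led at 61.7 CPM per kb, before Elane at 50.2. WT replicate 1 was led by Elane at 83.1 CPM per kb and WT replicate 2 by S100a9 at 46.6. In WT replicate 3 the 5 leading genes, Ngp, Prtn3, S100a9, S100a8 and Mpo, lay between 11.9 and 10.1 CPM per kb. Lcn2 was lowest in each library. An order within 1 library has no replicate, and neighbours in it such as S100a9 and S100a8 in KO replicate 2 (385 and 375 CPM per kb) changed places between libraries.

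Other genes of the neutrophil path were taken from lists chosen with earlier results of these data known. Of 16 other genes of primary granule content or the promyelocyte stage, 0 passed over 6 libraries, 13 had a positive log2 fold change and the median was 0.28. In pairs 1 and 3 again 0 of 16 passed, with a median of -0.00063. Their most abundant members, the granule proteoglycan gene Srgn and the chaperone gene Calr, are active in many blood cells and stood at 518.5 to 817 and 732 to 824 CPM in KO and at 526 to 978 and 653 to 851 CPM in WT. Ctsc, whose protease activates the granule serine proteases, was at 137.5, 320 and 135 CPM in KO replicates 1 to 3 and at 119, 98.7 and 103 CPM in WT replicates 1 to 3. The KO libraries all lay above WT for Ctsc, as did 2.27% of all genes, but it did not pass (log2 fold change 0.88, and 0.34 without KO replicate 2, edgeR adjusted p = 1.00 each).

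Of 32 other genes of secondary and tertiary granules, the NADPH oxidase or mature neutrophils, 24 were tested and 0 passed over 6 libraries. All 24 had a positive log2 fold change (median 2.22) and 23 were highest in KO replicate 2. Below all WT libraries in KO replicates 1 and 3 were 2 of the 24, Cd177 and Ifitm6, against 5.57% of all genes, and above all of them were also 2, Ncf4 and Itgam, against 5.05%. These 4 were named after their values were seen, and both counts are near the share of all genes. In pairs 1 and 3, 1 of 21 rose, against 0.258% of all genes, and 0 fell. Of the 21, 10 had a negative log2 fold change and the median was 0.040, where that of the 5 later members tested was -2.94. The gene that rose was Ncf4, a cytosolic subunit of the oxidase (log2 fold change 1.69, SE 0.29, edgeR adjusted p = 0.0092). It stood at 25.7, 84.6 and 11.3 CPM in KO replicates 1 to 3 and at 10.1, 4.27 and 2.56 CPM in WT replicates 1 to 3. The 3 KO libraries lay above all of WT for Ncf4, as they did for 2.27% of all genes. Retnlg, a gene of mature neutrophils, was at 5.08, 175 and 0.367 CPM in KO and at 0.553, 1.10 and 0.356 CPM in WT.

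Among regulators of granulocyte formation, 0 genes passed in either comparison. Of 11 transcription factor genes, 10 were tested and 7 were highest in KO replicate 2. Irf8, a factor of monocyte and granulocyte choice, was at 46.0, 317 and 17.1 CPM in KO and at 37.2, 29.6 and 12.0 CPM in WT. Cebpe, the factor of the secondary granule stage (named after its values were seen), had 2, 308 and 3 counts in KO replicates 1 to 3 and 27, 5 and 1 counts in WT replicates 1 to 3, and did not pass the filter. All 12 receptor and surface genes were highest in KO replicate 2, and 3 of 12 lay above all WT libraries in both KO replicates 1 and 3, as did 5.05% of all genes. Csf3r, the receptor of the granulocyte growth factor G-CSF, was at 13.15, 36.8 and 8.08 CPM in KO and at 6.36, 5.305 and 3.91 CPM in WT. Csf3r again lay above all of WT in the 3 KO libraries, as did 2.27% of all genes. Its log2 fold change was 1.89 (SE 0.59) over 6 libraries and 1.03 (SE 0.41) without KO replicate 2 (edgeR adjusted p = 1.00 each), and 1.04 (SE 0.31) in pairs 1 and 3 (edgeR adjusted p = 0.14). Fcgr3, an Fc gamma receptor gene, was at 10.7, 182 and 14.8 CPM in KO and at 18.3, 6.96 and 2.70 CPM in WT.

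Markers of other blood cells moved with the members in KO replicate 2. The monocyte list summed to 49.2, 895 and 62.15 CPM in KO replicates 1 to 3 and to 75.2, 60.1 and 27.6 CPM in WT replicates 1 to 3, and the macrophage list to 261, 3621 and 436 CPM in KO and 444, 207 and 168 CPM in WT. The eosinophil list summed to 185, 7163 and 47.1 CPM in KO and to 691, 90.0 and 119 CPM in WT. In pairs 1 and 3, 5 of its 8 tested genes fell in KO, beside Ltf and Ngp, against 0.604% of all genes. Of the monocyte genes 0 of 9 passed there, and of the macrophage genes 0 of 12. Among basophil and mast cell genes 1 of 8 fell in those pairs, against the same 0.604%. The list summed to 172, 1985 and 49.15 CPM in KO and 201, 229 and 88.3 CPM in WT. The mast cell genes Tpsab1 and Tpsb2 had no count in any library. The lymphoid list summed to 265, 1282 and 729 CPM in KO and to 338, 236 and 69.45 CPM in WT, and the late erythroblast list to 633, 5843 and 978 CPM in KO and to 565, 594 and 737 CPM in WT. In pairs 1 and 3, 4 of 11 late erythroblast genes rose in KO, against 0.258% of all genes, and 0 fell. They were the globin genes Hbb-bs, Hbb-bt and Hba-a1 and the heme synthesis gene Alas2. Hbb-bs rose by 1.68 on the log2 scale (SE 0.18) at an edgeR adjusted p of 0.00012, though reads of near-identical globin genes may be split in counting. In both KO replicates 1 and 3, 7 of the 11 late erythroblast genes lay above all WT libraries, as did 5.05% of all genes. Of 10 lymphoid genes 1 rose in pairs 1 and 3, against 0.258% of all genes. It was Jchain, the joining chain of antibodies (log2 fold change 6.92, SE 0.60, edgeR adjusted p = 2.08e-05). Jchain gave 26, 2699 and 1686 counts in KO replicates 1 to 3 and 5, 400 and 7 counts in WT replicates 1 to 3. The groups overlapped, since WT replicate 2, left out of that fit, lay above KO replicate 1 (27.6 and 1.59 CPM). The part of these cells in the members' levels was not tested.

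**Figure D5:**
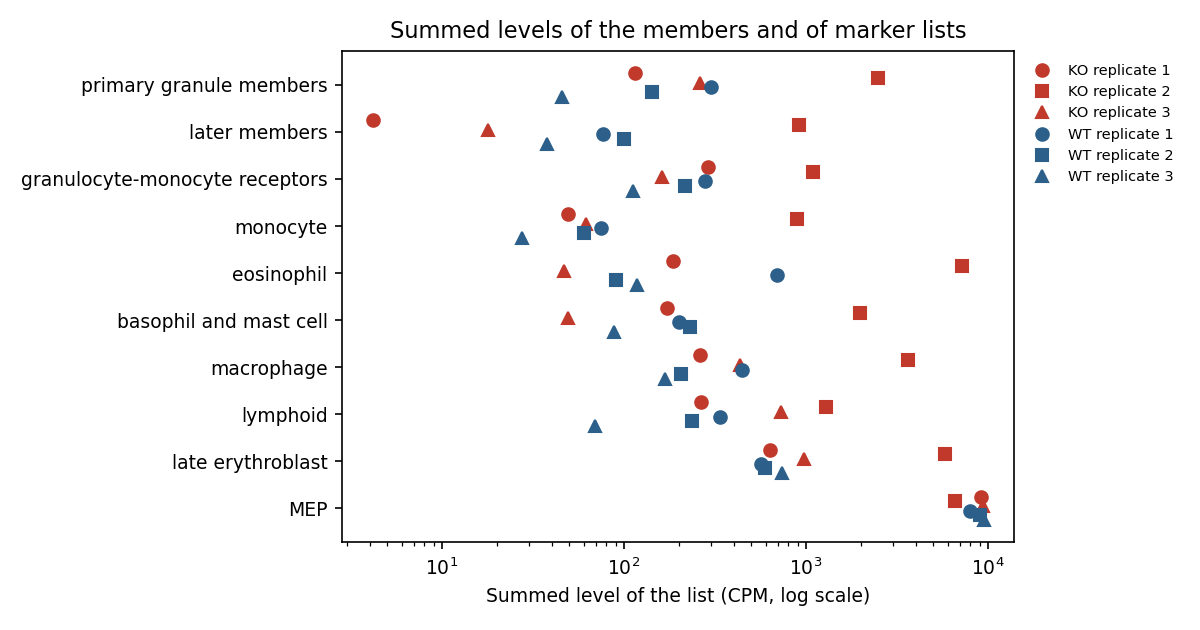
Summed CPM of the members and of marker lists in each library on a log axis, KO libraries in red above WT libraries in blue within each row. KO replicate 2 is the highest library in every row except that of MEP genes, where it is lowest at 6591 CPM against 8019 to 9498 CPM in the others. Car1 made up most of that sum in KO replicate 2.

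The profile of Mpo over the 6 libraries was closest to that of Igf1, Hfe, Ctss, Cfp and C1qc, among genes outside the 10 that reached 20 CPM. Their centred log2 CPM differed from those of Mpo by a root mean square of 0.182 to 0.248, less than that of any other member, of which Prtn3 (0.479) and Ctsg (0.539) came nearest, before Elane (1.28). These 5 were the nearest of 8155 genes, far more than the members. For Ltf the 5 nearest of those genes, Cyp11a1, F13a1, Ahnak, Siglec1 and Lilr4b, differed by 1.40 to 1.49. All 5 reached 20 CPM only in KO replicate 2, as did Igf1, Hfe and Ctss. Members were not held to that level, and Lcn2 peaked at 13.4 CPM. Whether scarcer genes outside the members lie nearer to Ltf was not tested. The members nearest to Ltf were Ngp (0.68), Lcn2 (0.735) and S100a9 (1.12). All 4 primary members were farther away, at 2.19 to 2.58. S100a9 lay nearer to Ltf than to Mpo (1.12 and 1.69), and S100a8 was about as far from both (1.54 and 1.57). These distances describe 6 libraries.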

How the data were processed

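Libraries of 6 sorted MEP pools were prepared with SMART-Seq v4 amplification followed by Nextera XT, per the labels' protocols, a method that keeps no strand information. The authors deposited raw read counts per Ensembl gene and library. Per the submitters' processing notes FastQC 0.11.5, STAR 2.5.3a and edgeR were used, and the builds named are GRCh38.p3 and GRCm38.p3. The sources used here do not give the counter, its strand setting or the annotation. Gene positions are as deposited, and for 49826 of 52319 shared IDs they equal those of GENCODE M21 (GRCm38).

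Low counts were removed by filterByExpr in edgeR 4.0.16 (minimum count 10, minimum total 15), which kept 13453, all 10 members among them. Library sizes were scaled by TMM, and KO was compared with WT by the quasi-likelihood test (glmQLFit, glmQLFTest), two-sided, with Benjamini-Hochberg adjustment over all genes tested and a threshold of 0.05. Fold changes are KO over WT. CPM use TMM-scaled sizes and log2 CPM a prior count of 2. Levels per kb use the longest GENCODE transcript. Alternatives used DESeq2 1.42.0, limma 3.58.1, other scalings, no filter, a replicate block and leaving out each library, in R 4.3.3. Deviations from the group means in log2 CPM correlated across genes at 0.532, 0.161 and 0.633 for the numbers 1, 2 and 3, each above 0.1, so the numbers were taken as pairs. No correlation of deviations was computed between libraries with unlike numbers, so the same-number values have no comparison. What a number marks is not in the labels.

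All 10 members are reported. Of other lists, the 2 genes of highest CPM and the 2 of smallest p could be named, and not each is. Members, lists and tests were chosen with earlier results of these data known.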

Additional observations from a re-analysis of the deposited data

How the results depend on the processing

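The count of 0 called genes held under 11 of 13 alternatives. DESeq2 called 6, and the replicate block in pairs 1 and 3 called 117, where fewer samples were used. Leaving out single libraries gave 0 each time, and so did the replicate block over all 6 libraries. The 4 primary and 6 later members kept a positive log2 fold change with DESeq2, its size factors, no scaling, no filter and without each library except KO replicate 2. Over the libraries left out, that of Elane ranged from -0.44 to 4.16, Ctsg from -0.50 to 3.64, Ltf from -4.09 to 3.00, Ngp from -3.53 to 3.16, Camp from -4.03 to 2.17, Lcn2 from -5.40 to 2.02, S100a8 from -1.80 to 2.35 and S100a9 from -2.50 to 2.64, the lowest each time without KO replicate 2. With limma voom the values were -1.20 for Ltf, -0.79 for Ngp, -1.07 for Camp, -1.82 for Lcn2, -0.47 for S100a8 and -0.62 for S100a9. The replicate block gave -1.35 for Ltf, -1.10 for Ngp, -0.87 for Camp, -1.26 for Lcn2 and -0.25 for S100a9. In pairs 1 and 3 with the replicate block they were -0.21 for Elane, -3.92 for Ltf, -3.06 for Ngp, -2.94 for Camp, -1.85 for S100a8 and -2.22 for S100a9. The cause of the sign changes under voom and the block was not tested.

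The later share was lower in KO for 3 of 3 numbers in each of 4 forms tried. Without division by length the mean share was 12.3% in KO and 35.6% in WT, and without S100a8 and S100a9 it was 8.31% in KO and 28.5% in WT. Without both genes the later sum averaged 179.9 CPM in KO and 35.9 CPM in WT. With them the KO later sum averaged 314 CPM, and 11.0 CPM without KO replicate 2. The lowest counts of Ltf, Camp and Lcn2 in KO replicates 1 and 3 limit how far below WT these genes can be shown to lie.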
